A study of Homo sapiens with 6 samples.

Results

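The proteasome genes described here were taken from the table by symbol. They are the rows whose NCBI Gene ID maps to a symbol that starts with PSMA, PSMB, PSMC, PSMD, PSME, PSMF or PSMG followed by a number, which held for 48 of 18597 genes. Of the 48, 46 encode subunits, activators, an inhibitor or assembly chaperones of the proteasome: 14 of the core particle, 17 of the regulatory particle, 5 of the immunoproteasome, 3 other activators or inhibitors and 7 assembly factors. The remaining 2, PSMC3IP of meiotic recombination and PSME3IP1, whose product binds PSME3, match the pattern by name and are counted apart.

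RNA came from AGS cells, an established human gastric adenocarcinoma line, transfected with a small interfering RNA named siDUB1 or with a control named siControl, in 3 libraries each. Such RNAs are short duplexes that lead to the breakdown of transcripts with a matching sequence. The series concerns DUB1 and Hippo signalling in gastric cancer. All 6 libraries came from this one line, and the time after transfection is not given in the labels. Whether the replicates came from separate cultures is not given either, so the p-values reflect the spread between these libraries alone, and that spread may be technical.

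Levels are in FPKM, which divides a gene's fragments by the length of its transcript and by the library's mapped total, so they can be compared between genes. The number of reads behind them is unknown. The target was taken to be USP36, for which RefSeq lists DUB1 as a synonym, and no other source names it. USP36 had 4.11, 4.75 and 2.59 FPKM in siDUB1 replicates 1, 2 and 3, against 9.16, 6.74 and 7.25 FPKM in siControl replicates 1, 2 and 3. The groups did not overlap, with a log2 change of -0.87 and a limma adjusted p of 0.0432, and the call was lost without siControl replicate 1, 2 or 3 (limma adjusted p = 0.179, 0.125 and 0.152), without siDUB1 replicate 1 or 2 (0.0878 and 0.0509), with no filter on low values (0.0676) and with smaller pseudocounts (0.0516 and 0.0526). Keratin genes of simple epithelium were abundant, with KRT8 at 2848 to 4323 FPKM, while EPCAM lay at 102 to 223 FPKM in siDUB1 and 255 to 266 FPKM in siControl and the cadherin gene CDH1 at 0.85 to 2.21 FPKM in siDUB1 and 3.08 to 3.22 FPKM in siControl. The markers PTPRC and CD3E of leukocytes and COL1A2 and DCN of fibroblasts were at or under 0.37 FPKM in all libraries. So were PECAM1, CDH5 and VWF of endothelium. Some markers of other cell types separated by group: CD68 lay at 16.6 to 19.4 FPKM in siDUB1 and 6.99 to 8.13 FPKM in siControl, COL1A1 at 8.20 to 11.1 FPKM in siDUB1 and 18.7 to 19.6 FPKM in siControl, and PDGFRA at 0.80 to 1.92 FPKM in siDUB1 and 2.30 to 2.57 FPKM in siControl. The 3 leukocyte markers summed to 16.97 to 19.7 FPKM in siDUB1 and 7.15 to 8.44 FPKM in siControl, with 1 of 3 not overlapping, and the 4 fibroblast markers to 10.2 to 11.9 FPKM in siDUB1 and 21.1 to 22.03 FPKM in siControl, with 2 of 4 not overlapping. Of all 10994 genes tested for a change, 53.3% did not overlap between the groups. The part of these markers in the results was not tested. Library siDUB1 replicate 3 stood apart: its median FPKM was 1.75, against 2.91 and 2.95 in siDUB1 replicates 1 and 2 and 2.93 to 3.07 in the controls. Results are therefore also given without it. In RNA from a whole culture, fewer cells that express a gene and less RNA per cell cannot be told apart.

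The proteasome degrades proteins that carry ubiquitin chains. Its core particle (20S) is a barrel of stacked rings, with alpha subunits at both ends and beta subunits inside, of which PSMB5, PSMB6 and PSMB7 cut the substrate. The regulatory particle (19S) caps the barrel, and its ATPases unfold the substrate while its other subunits bind and remove ubiquitin. In cells exposed to interferon-gamma, the catalytic subunits can be replaced during assembly by PSMB8, PSMB9 and PSMB10, which gives the immunoproteasome, and the PA28 cap of PSME1 and PSME2 can replace the regulatory particle. Dedicated chaperones build the core and the base of the regulatory particle, and cells short of proteasome activity raise most subunit genes together through the transcription factor NRF1, encoded by NFE2L1.

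Few proteasome genes passed the test after siDUB1, and their median change was near that of all genes. A gene was tested when it reached 1 FPKM in at least 3 of the 6 libraries, on the scale of log2(FPKM + 1), and this left 45 of the 46, since the chaperone gene PSMD5 was too low. Of the 45, 2 rose (PSMG4 and PSME1), 2 fell (PSMG1 and PSMD3) and 41 did not pass at a limma adjusted p under 0.05. These 4 are 8.89% of the tested members, beside 14.1% of all 10994 genes tested, of which 8.13% were higher and 5.92% lower. The members' share was thus below that of the whole table in this fit. With a correction for the GC content and length of transcripts both shares were 24.4%. Log2 changes of the 45 ran from -0.62 to 0.62 with a median of -0.052, beside a median of -0.064 over all genes tested.

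The groups did not overlap in 21 of the 45 members, 9 of them higher and 12 lower in siDUB1, or 46.7%. Of all genes tested 53.3% did not overlap, 24.8% higher and 28.5% lower. The 46 genes together held 0.923%, 0.913% and 0.893% of all FPKM in siDUB1 replicates 1, 2 and 3, against 0.934%, 0.957% and 0.961% in siControl replicates 1, 2 and 3. Every siDUB1 library was below every control library in this share, but not in the sum itself, which was 5449.7, 5328 and 6208 FPKM in siDUB1 replicates 1, 2 and 3, against 5097, 5491 and 5425 FPKM in siControl replicates 1, 2 and 3. The share also depends on the FPKM totals of the libraries, which ran from 583243 to 694878 in siDUB1 and from 545694 to 573574 in siControl. The mean shares were 0.910% ± 0.0153 in siDUB1 and 0.951% ± 0.0145 in siControl (SD, n = 3 each), and no test of this sum was made. Among all genes tested, 894 were higher and 651 lower, against 662 higher and 731 lower with size factors. The balance of directions thus depended on the scaling.

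**Figure D1:**
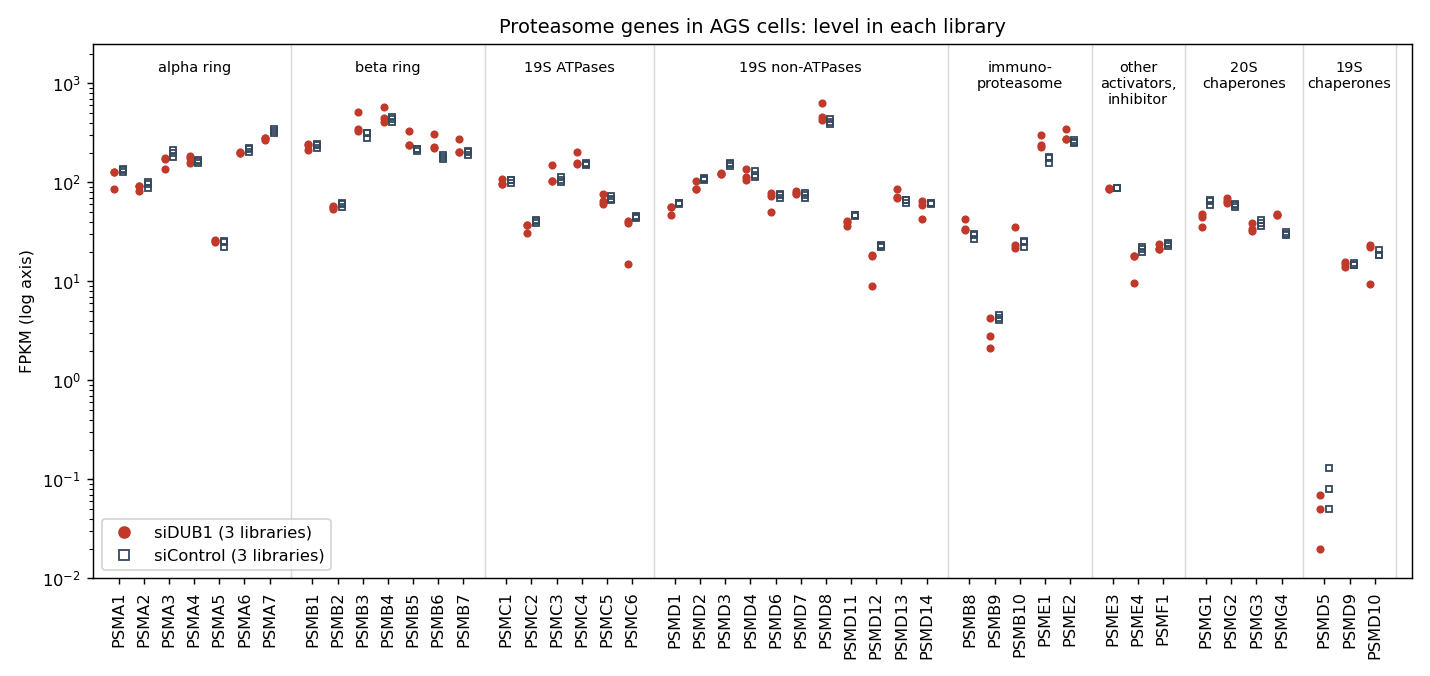
Level of each of the 46 proteasome genes in each library, in FPKM on a log axis, with siDUB1 as filled circles and siControl as open squares, grouped by role. All core genes except PSMA5 lie above 50 FPKM in every library, PSMB9 lies between 2.13 and 4.53 FPKM, and PSMD5 lies at or under 0.13 FPKM in all 6 libraries.

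The number of members called depended on single libraries. Without siDUB1 replicate 3, 10 of the 45 were higher and 14 lower, or 53.3%, beside 57.3% of all genes in the same fit (31.7% higher and 25.6% lower). These included all 4 genes called with the 6 libraries, in the same directions. Without siDUB1 replicate 1 or 2 PSMG4 was the single member called, while 4.78% and 8.5% of all genes passed. No member passed without siControl replicate 1, 2 or 3, when 1.14%, 1.34% and 1.24% of all genes did. With the GC and length correction 5 members were higher and 6 lower, or 24.4%, beside 24.4% of all genes (12.1% higher and 12.2% lower). The same correction on 5 libraries, without siDUB1 replicate 3, put 8 members higher and 14 lower, or 48.9%, beside 58.2% of all genes (32% higher and 26.2% lower). Of the other settings, size factors and no filter on low values called PSMG4 and PSMG1, while 12.7% and 7.84% of all genes passed, and quantile normalization called 8 members, while 23.2% did. The replicate block called none, while 1.63% of all genes passed. The shares of all genes were 14.6% with a filter of 5 FPKM, 12.7% and 12.6% with pseudocounts of 0.1 and 0.01, 13.8% without the eBayes trend and 13.1% with robust eBayes.

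**Figure D2:**
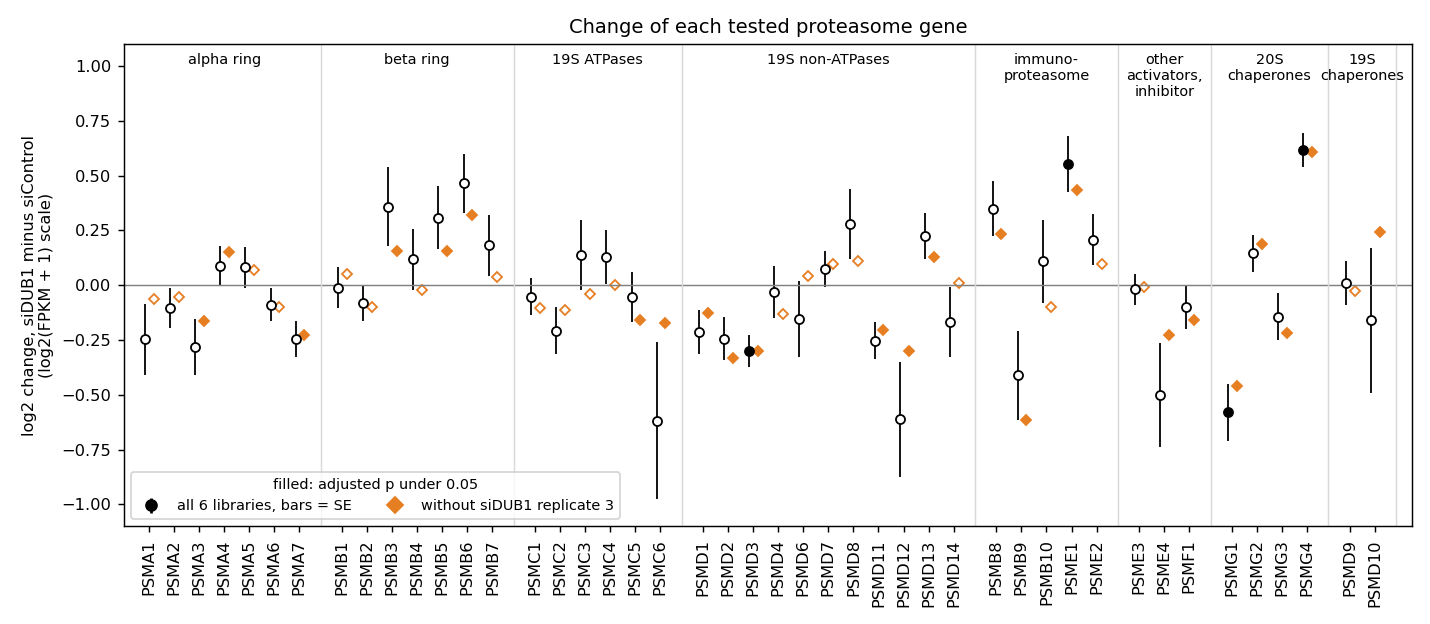
Log2 change of each of the 45 tested proteasome genes, siDUB1 minus siControl, with all 6 libraries (circles, bars are standard errors) and without siDUB1 replicate 3 (diamonds), filled where the limma adjusted p was under 0.05. PSMG4 and PSME1 lie highest among the filled circles at 0.62 and 0.55, PSMG1 and PSMD3 lie at -0.58 and -0.30, and the core and regulatory genes scatter on both sides of 0.

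The clearest movements were among the chaperones that build the core particle, and they went in both directions. PSMG4 and PSMG3 encode the PAC4 and PAC3 proteins, which pair to guide the alpha ring, and PSMG1 and PSMG2 encode PAC1 and PAC2, which pair likewise. PSMG4 had 46.8, 46.8 and 47.6 FPKM in siDUB1 replicates 1, 2 and 3, against 30.2, 29.4 and 31.5 FPKM in siControl replicates 1, 2 and 3. The 3 siDUB1 libraries lay within 1 FPKM of each other and well above all controls. PSMG4 rose 1.55-fold by the ratio of means (47.03 ± 0.473 FPKM in siDUB1 and 30.4 ± 1.08 FPKM in siControl, SD, n = 3 each), with a log2 change of 0.62 (SE 0.079, limma adjusted p = 0.00787). Its change was 0.61 without siDUB1 replicate 3 (limma adjusted p = 1.26e-06) and lay between 0.45 and 0.69 over the 17 alternatives. The call was lost without siControl replicate 1, 2 or 3, with a limma adjusted p of 0.064, 0.0691 and 0.0624.

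PSMG1 had 47.5, 44.6 and 35.5 FPKM in siDUB1 replicates 1, 2 and 3, against 59.4, 66.3 and 65.4 FPKM in siControl replicates 1, 2 and 3. All siDUB1 libraries were below all controls, and siDUB1 replicate 3 was the lowest. PSMG1 fell to 0.668 of the control mean (42.5 ± 6.28 FPKM in siDUB1 and 63.7 ± 3.78 FPKM in siControl, SD, n = 3 each), a log2 change of -0.58 (SE 0.13, limma adjusted p = 0.0328). The change was -0.46 without siDUB1 replicate 3 (limma adjusted p = 3.54e-05). It did not pass without siDUB1 replicate 1 or 2 (limma adjusted p = 0.0589 and 0.0613) or without siControl replicate 1, 2 or 3 (0.116, 0.14 and 0.149).

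The partners of these chaperones did not pass, and the members of each pair pointed opposite ways. PSMG2 had 69.9, 64.6 and 61.7 FPKM in siDUB1 replicates 1, 2 and 3, against 56.6, 59.7 and 60.6 FPKM in siControl replicates 1, 2 and 3. PSMG2 stood above the controls in every siDUB1 library by a small margin (log2 change 0.15, limma adjusted p = 0.262). PSMG3 had 32.4, 33.8 and 38.96 FPKM in siDUB1 replicates 1, 2 and 3, against 38.7, 41.5 and 36.2 FPKM in siControl replicates 1, 2 and 3. The groups overlapped for PSMG3 (log2 change -0.14, limma adjusted p = 0.361). Both passed when siDUB1 replicate 3 was left out, PSMG2 at 0.19 (limma adjusted p = 0.0107) and PSMG3 at -0.22 (limma adjusted p = 0.0088), so that in this fit PSMG4 and PSMG2 were higher and PSMG1 and PSMG3 lower. The 4 genes summed to 197, 190 and 184 FPKM in siDUB1 replicates 1, 2 and 3, against 185, 197 and 194 FPKM in siControl replicates 1, 2 and 3, so their joint level overlapped between the groups.

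The base of the regulatory particle is assembled with PSMD9, PSMD10 (gankyrin) and PSMD5. PSMD9 had 15.1, 14.03 and 15.8 FPKM in siDUB1 replicates 1, 2 and 3, against 14.6, 15.4 and 14.7 FPKM in siControl replicates 1, 2 and 3. PSMD9 was thus nearly level (log2 change 0.0093, limma adjusted p = 0.953). PSMD10 had 22.4, 23.4 and 9.39 FPKM in siDUB1 replicates 1, 2 and 3, against 18.6, 18.6 and 20.6 FPKM in siControl replicates 1, 2 and 3. Here siDUB1 replicate 3 was far below the other 5 libraries, and the log2 change of -0.16 turned to 0.24 without it (limma adjusted p = 0.745 with it and 0.0054 without it). PSMD5 had 0.07, 0.02 and 0.05 FPKM in siDUB1 replicates 1, 2 and 3, against 0.05, 0.13 and 0.08 FPKM in siControl replicates 1, 2 and 3. PSMD5 was thus near 0 in AGS cells whatever the transfection, and no test was made. Over the 6 tested assembly genes 1 rose, 1 fell and the other 4 missed the threshold, or 33.3% called, beside 14.1% of all genes (8.13% higher and 5.92% lower). Their median log2 change was -0.067.

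**Figure D3:**
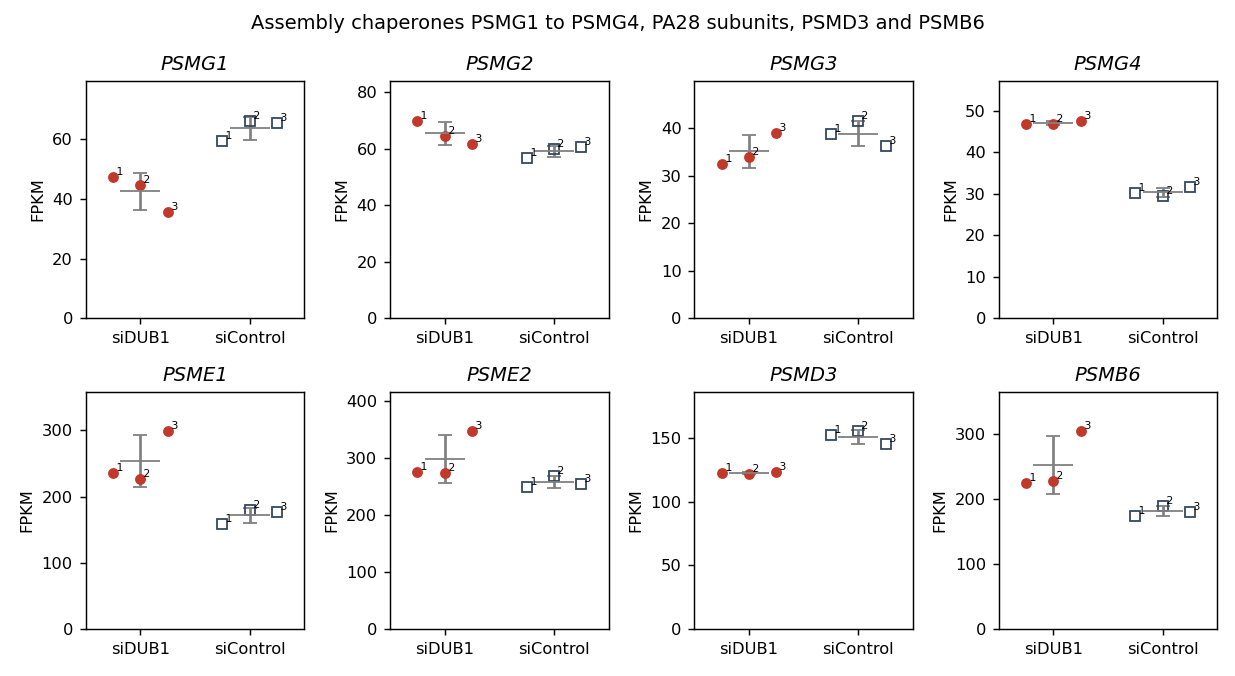
FPKM in each library for the 4 core chaperone genes, the PA28 genes PSME1 and PSME2, the regulatory gene PSMD3 and the catalytic gene PSMB6, with siDUB1 left and siControl right, replicate numbers beside the points, and horizontal bars with whiskers for mean and SD (n = 3). PSMG4 and PSMD3 are tightly grouped within siDUB1, whereas PSME1, PSME2 and PSMB6 are highest in siDUB1 replicate 3.

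Among the immunoproteasome genes the PA28 subunit PSME1 rose, and none of the catalytic subunits passed. PSME1 had 236, 227 and 299 FPKM in siDUB1 replicates 1, 2 and 3, against 158, 179.9 and 177 FPKM in siControl replicates 1, 2 and 3. All siDUB1 libraries exceeded all controls, and siDUB1 replicate 3 was the highest. PSME1 rose 1.48-fold by the ratio of means (254 ± 38.9 FPKM in siDUB1 and 172 ± 11.7 FPKM in siControl, SD, n = 3 each), with a log2 change of 0.55 (SE 0.13, limma adjusted p = 0.0369). It was 0.43 without siDUB1 replicate 3 (limma adjusted p = 6.23e-05). The call was lost with size factors (limma adjusted p = 0.0916), with no filter on low values (0.0531), without siDUB1 replicate 1 or 2 (0.0775 and 0.0517) and without siControl replicate 1, 2 or 3 (0.159, 0.125 and 0.143), while the change stayed between 0.35 and 0.63 over the 17 alternatives.

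Its partner PSME2 lies on chromosome 14 only 4403 bases from PSME1 (PSME1 at 24136194 to 24138962 and PSME2 at 24143365 to 24146610, GRCh38). PSME2 had 275, 273 and 346 FPKM in siDUB1 replicates 1, 2 and 3, against 248, 268 and 253 FPKM in siControl replicates 1, 2 and 3. PSME2 did not pass (log2 change 0.21, limma adjusted p = 0.251), although every siDUB1 library was above every control. 6 pseudogenes are named for PSME2 in the RefSeq table and none for PSME1, and the microRNA gene MIR7703 overlaps PSME2, so its reads are the less certain.

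The catalytic genes PSMB8 and PSMB9 lie on chromosome 6 with 9513 bases between them (PSMB8 at 32840717 to 32844679 and PSMB9 at 32854192 to 32859851), in the major histocompatibility complex, yet they pointed in opposite directions. PSMB8 had 33.2, 34.2 and 42.96 FPKM in siDUB1 replicates 1, 2 and 3, against 26.5, 29.1 and 29.9 FPKM in siControl replicates 1, 2 and 3. The siDUB1 libraries were all higher, without passing (log2 change 0.35, limma adjusted p = 0.11). PSMB8 overlaps the antisense gene PSMB8-AS1, and as the use of strand is not given, reads of the pair cannot be told apart. PSMB9 had 2.80, 2.13 and 4.27 FPKM in siDUB1 replicates 1, 2 and 3, against 4.05, 4.28 and 4.53 FPKM in siControl replicates 1, 2 and 3. For PSMB9, siDUB1 replicates 1 and 2 were below all controls and replicate 3 was among them (log2 change -0.41, limma adjusted p = 0.2). Both passed, in opposite directions, when siDUB1 replicate 3 was left out, PSMB8 at 0.23 (limma adjusted p = 0.0053) and PSMB9 at -0.62 (limma adjusted p = 1.68e-04).

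PSMB10 had 23.4, 21.8 and 35.3 FPKM in siDUB1 replicates 1, 2 and 3, against 22.3, 25.5 and 25.1 FPKM in siControl replicates 1, 2 and 3. PSMB10, on chromosome 16, overlapped between the groups (log2 change 0.11, limma adjusted p = 0.695), with siDUB1 replicate 3 above the other 5 libraries. Its direction depended on that library, with -0.098 when it was left out (limma adjusted p = 0.229). Over the 5 immunoproteasome genes 1 rose, none fell and the other 4 missed the threshold, around a median of 0.21. The median was 0.094 without siDUB1 replicate 3, with 2 genes higher and 1 lower. The calls are 1 of the 5 with all libraries and 3 of the 5 without that library, beside 14.1% and 57.3% of all genes.

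Each immune catalytic subunit takes the place of one standard subunit, so their levels were also set side by side within each library. PSMB8 stood at 13.8%, 14.4% and 13.0% of PSMB5 in siDUB1 replicates 1, 2 and 3, against 12.9%, 13.3% and 13.6% in siControl replicates 1, 2 and 3. PSMB10 stood at 11.5%, 10.7% and 12.8% of PSMB7 in siDUB1, against 12.0%, 12.4% and 12.4% in siControl. Both ratios overlapped between the groups. PSMB9 stood at 1.24%, 0.933% and 1.40% of PSMB6 in siDUB1 replicates 1, 2 and 3, against 2.33%, 2.26% and 2.51% in siControl replicates 1, 2 and 3.

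All siDUB1 libraries, replicate 3 included, were below all controls for PSMB9 relative to PSMB6. This ratio moved with both of its genes, as the log2 change was -0.41 for PSMB9 and 0.46 for PSMB6. On the log2(FPKM + 1) scale this ratio was -5.98 ± 0.185 in siDUB1 and -5.11 ± 0.0694 in siControl (SD, n = 3 each), a difference of -0.88, with p = 0.1 in an exact two-sided permutation test and 0.3 adjusted over the 3 pairs. The smallest p this design allows is 0.1. The differences were 0.040 for PSMB8 to PSMB5 (exact permutation p = 0.5, adjusted 0.5) and -0.074 for PSMB10 to PSMB7 (exact permutation p = 0.4, adjusted 0.5). The difference for PSMB9 to PSMB6 lay between -0.94 and -0.77 when single libraries were left out.

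**Figure D4:**
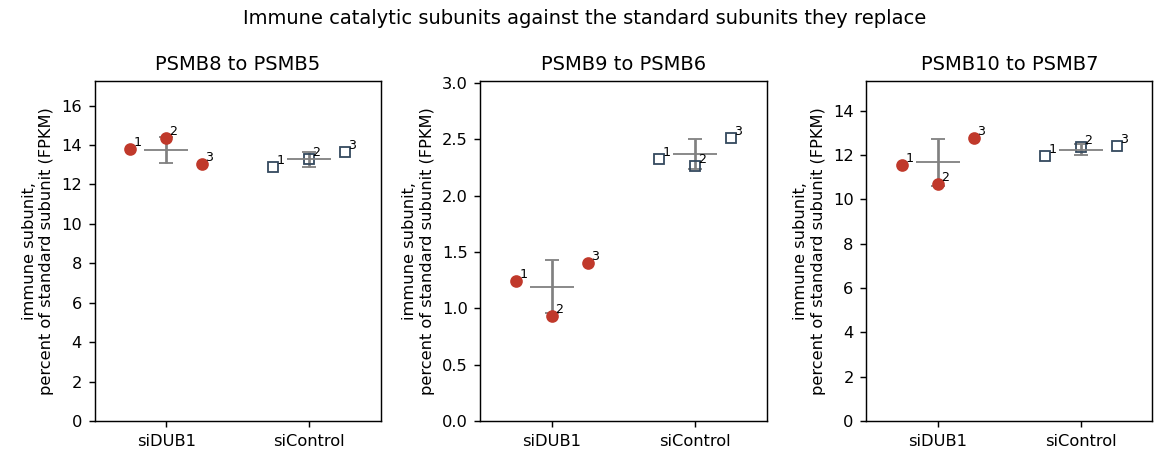
Level of each immune catalytic subunit as a percentage of the standard subunit it replaces, in FPKM within a library, with siDUB1 left and siControl right, replicate numbers beside the points, and bars with whiskers for mean and SD (n = 3). PSMB9 lies at 0.933% to 1.40% of PSMB6 in siDUB1 and 2.26% to 2.51% in siControl, while the other pairs overlap.

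Short stretches are shown because PSMG4, PSMB10 and PSME2 carry the same run of bases close to the start used for each. The 250 bases before a RefSeq start were available for 40 of the 46 genes (GRCh38.p14). They were searched on both strands for the interferon-stimulated response element core, which reads GAAA, then NN for any pair of bases, then GAAA. A match stood in 5 of the 40, or 12.5%, beside 3.07% of all 27305 such promoters. The matches are in capitals below with up to 10 bases on either side, 5′ to 3′ on the strand of the gene.
PSMG4: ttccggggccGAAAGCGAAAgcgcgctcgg
PSMB10: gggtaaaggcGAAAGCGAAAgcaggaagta
PSME2: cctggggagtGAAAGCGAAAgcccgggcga
PSMA4: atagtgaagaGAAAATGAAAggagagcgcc
PSMB4: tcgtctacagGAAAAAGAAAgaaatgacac

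The match began 33, 21 and 28 bases before the start used for PSMG4, PSMB10 and PSME2. It began 240 and 68 bases before the start used for PSMA4 and PSMB4. For PSMG4 that start lies inside the gene, which covers chr6:3254404-3268049, and not at the gene's first base. The stretches lie at chr6:3258904-3258933, chr16:67936852-67936881, chr14:24146619-24146648, chr15:78540155-78540184 and chr1:151399495-151399524, on the minus strand for PSMB10 and PSME2 and the plus strand for the others. Of these 5 genes only PSMG4 passed the test with all 6 libraries. PSME1, which rose, PSMB8 and PSMB9 had no match in these bases. Other motifs searched were the antioxidant response element core TGANNNNGC, found in 52.5% of the 40 and 35.4% of all promoters, the CCAAT box in 42.5% and 33.0%, and the gamma-activated site TTCNNNGAA in 4 of the 40 and 6.78% of all. GENCODE places the PSMG4 and PSME2 stretches wholly or partly in annotated exons. A match describes the letters and is not a site of binding.

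The upstream stretch of PSMD3, the single core or regulatory gene that passed, is shown for the motifs it holds, with PSME1 for contrast. Bases that GENCODE places in an exon are left off.
PSMD3: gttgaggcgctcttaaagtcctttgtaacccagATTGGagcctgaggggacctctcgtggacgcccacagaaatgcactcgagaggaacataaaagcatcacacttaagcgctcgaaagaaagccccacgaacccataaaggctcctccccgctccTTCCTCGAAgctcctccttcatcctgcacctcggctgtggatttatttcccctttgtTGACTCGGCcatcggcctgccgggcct
PSME1: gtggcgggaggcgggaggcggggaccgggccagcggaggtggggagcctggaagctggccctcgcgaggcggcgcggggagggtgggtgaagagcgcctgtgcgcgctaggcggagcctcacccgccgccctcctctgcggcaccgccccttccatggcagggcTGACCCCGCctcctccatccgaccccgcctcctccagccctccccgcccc
The PSMD3 stretch covers chr17:39980557-39980796 and the PSME1 stretch chr14:24135944-24136157, both on the plus strand. No test bears on these letters. Capitals mark, in PSMD3, the CCAAT box on the opposite strand, a gamma-activated site and an antioxidant response element core, in that order, and in PSME1 an antioxidant response element core.

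In the regulatory particle 12 of 17 genes had a log2 change below 0, beside 6157 of all 10994 genes tested. PSMD3, a scaffold subunit of the lid, was the only regulatory gene to pass. PSMD3 had 122, 122 and 123 FPKM in siDUB1 replicates 1, 2 and 3, against 152, 155 and 145 FPKM in siControl replicates 1, 2 and 3. The 3 siDUB1 values were nearly the same and all below the controls. PSMD3 overlaps the gene LOC124904000 in RefSeq, so reads of that pair cannot be told apart without strand. PSMD3 fell to 0.812 of the control mean (122 ± 0.653 FPKM in siDUB1 and 151 ± 5.35 FPKM in siControl, SD, n = 3 each), with a log2 change of -0.30 (SE 0.073, limma adjusted p = 0.0437). It was -0.30 without siDUB1 replicate 3 (limma adjusted p = 2.25e-04). The call was close to the threshold: it did not pass with size factors (limma adjusted p = 0.251), with no filter on low values (0.0552), with eBayes without a trend or robust (0.0749 and 0.0571), without siDUB1 replicate 1 or 2 (0.121 and 0.0963) or without siControl replicate 1, 2 or 3 (0.175, 0.194 and 0.152).

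PSMD2, which with PSMD1 forms the large platform of the base, and PSMD11, a lid subunit, were also below the controls in every siDUB1 library. PSMD2 had 86.2, 85.2 and 103 FPKM in siDUB1 replicates 1, 2 and 3, against 109.7, 106 and 109 FPKM in siControl replicates 1, 2 and 3. PSMD2 did not pass with all libraries (log2 change -0.24, limma adjusted p = 0.141) and did without siDUB1 replicate 3 (-0.33, limma adjusted p = 7.20e-05). PSMD11 had 40.6, 39.7 and 36.2 FPKM in siDUB1 replicates 1, 2 and 3, against 46.8, 45.5 and 46.9 FPKM in siControl replicates 1, 2 and 3. PSMD11 stood at -0.25 (limma adjusted p = 0.0928) and at -0.20 without siDUB1 replicate 3 (limma adjusted p = 0.00343). PSMD1 was below the controls in every siDUB1 library too, with 53.1 ± 5.37 FPKM in siDUB1 and 61.5 ± 0.927 FPKM in siControl (log2 change -0.21, limma adjusted p = 0.181).

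The lid subunit gene PSMD12 and the ATPase gene PSMC6 had the lowest log2 changes of all members, and the size of both moved with siDUB1 replicate 3. PSMC6 had 40.3, 39.1 and 15.2 FPKM in siDUB1 replicates 1, 2 and 3, against 44.1, 44.98 and 45.7 FPKM in siControl replicates 1, 2 and 3. PSMD12 had 18.6, 17.9 and 9.06 FPKM in siDUB1 replicates 1, 2 and 3, against 22.03, 22.9 and 23.1 FPKM in siControl replicates 1, 2 and 3. In both, siDUB1 replicates 1 and 2 were slightly below the controls and replicate 3 far below. Their log2 changes were -0.62 and -0.61 with all libraries (limma adjusted p = 0.26 and 0.156), and -0.17 and -0.30 without siDUB1 replicate 3 (limma adjusted p = 0.00983 and 6.16e-04). Among the ATPases, PSMC2 was lower in every siDUB1 library without passing (log2 change -0.21, limma adjusted p = 0.219).

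PSMD13, a lid subunit named here after its values were seen, was the only regulatory gene higher in every siDUB1 library. PSMD13 had 71.2, 70.3 and 86.1 FPKM in siDUB1 replicates 1, 2 and 3, against 61.7, 65.8 and 66.3 FPKM in siControl replicates 1, 2 and 3. It did not pass (log2 change 0.22, limma adjusted p = 0.186), and did at 0.13 without siDUB1 replicate 3 (limma adjusted p = 0.0432). Of the 17 regulatory genes none rose, 1 fell and 16 missed the threshold, around a median log2 change of -0.15. That is 5.88% called, beside 14.1% of all genes. With siDUB1 replicate 3 left out, 1 was higher, 7 were lower and 9 missed the threshold, around a median of -0.11. These 8 calls are 47.1% of the class, beside 57.3% of all genes in that fit (31.7% higher and 25.6% lower). Both medians are below those over all genes tested, -0.064 and 0.023, and no test of that difference was made.

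The ubiquitin receptor gene PSMD4 and the deubiquitinase gene PSMD14 of the lid, named for their roles after their values were seen, overlapped between the groups. PSMD4 had 114, 106 and 136 FPKM in siDUB1 replicates 1, 2 and 3, against 113, 131 and 118 FPKM in siControl replicates 1, 2 and 3. PSMD14 had 64.3, 59.6 and 42.6 FPKM in siDUB1 replicates 1, 2 and 3, against 60.2, 61.7 and 62.6 FPKM in siControl replicates 1, 2 and 3. PSMD8 was the most abundant regulatory gene, with a mean of 506 FPKM in siDUB1 and 411 FPKM in siControl, and PSMD12 the least, with means of 15.2 FPKM and 22.7 FPKM. The levels of the 11 non-ATPase genes thus spanned 33.4-fold in siDUB1 and 18.1-fold in siControl.

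None of the 14 core genes passed with all 6 libraries, beside 14.1% of all genes. Without siDUB1 replicate 3, 4 were higher and 2 lower, or 42.9%, beside 57.3% of all genes (31.7% higher and 25.6% lower). With all 6 libraries the medians of the outer and inner rings lay on opposite sides of 0. Of the 7 alpha genes 2 had a log2 change above 0 and 5 below, with a median of -0.10. Of the 7 beta genes 5 were above 0 and 2 below, with a median of 0.18. Of all 10994 genes tested 4837 were above 0 and 6157 below, with a median of -0.064. As a share of all FPKM the alpha genes held 0.169% ± 0.0262 in siDUB1 and 0.206% ± 0.00553 in siControl, and the beta genes 0.305% ± 0.0180 in siDUB1 and 0.289% ± 0.00708 in siControl (SD, n = 3 each), shares that likewise depend on the FPKM totals. When siDUB1 replicate 3 was left out, the medians were -0.062 for the alpha and 0.052 for the beta genes, beside 0.023 over all genes in that fit. With the GC and length correction they were -0.0038 for the alpha and 0.14 for the beta genes, beside -0.065 over all genes in that fit. With siDUB1 replicate 3 also left out they were -0.077 for the alpha and 0.0036 for the beta genes. Both were then below the median of 0.025 over all genes. No test of these medians was made.

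PSMB6, the standard caspase-like subunit, was nearest to the threshold among the core genes. PSMB6 had 225, 228 and 305 FPKM in siDUB1 replicates 1, 2 and 3, against 174, 189 and 180.2 FPKM in siControl replicates 1, 2 and 3. All siDUB1 libraries were above all controls (log2 change 0.46, SE 0.14, limma adjusted p = 0.0681), and PSMB6 passed without siDUB1 replicate 3 (0.32, limma adjusted p = 1.94e-04). PSMB5 had 240.5, 238 and 329.5 FPKM in siDUB1 replicates 1, 2 and 3, against 206, 219 and 219 FPKM in siControl replicates 1, 2 and 3. PSMB5, the chymotrypsin-like subunit and the main target of bortezomib, was also higher in every siDUB1 library (log2 change 0.31, limma adjusted p = 0.18), and passed at 0.15 without siDUB1 replicate 3 (limma adjusted p = 0.0186). PSMB7 had 203, 204 and 276 FPKM in siDUB1 replicates 1, 2 and 3, against 187, 206 and 202 FPKM in siControl replicates 1, 2 and 3. PSMB7, the trypsin-like subunit, overlapped between the groups (log2 change 0.18, limma adjusted p = 0.371) with replicate 3 apart.

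PSMB3, a structural beta subunit, averaged 396 ± 102 FPKM in siDUB1 and 303 ± 17.01 FPKM in siControl (SD, n = 3 each) and did not pass (log2 change 0.36, limma adjusted p = 0.206). In the alpha ring PSMA7 was lower in every siDUB1 library. PSMA7 had 284, 278 and 271 FPKM in siDUB1 replicates 1, 2 and 3, against 312, 344 and 332 FPKM in siControl replicates 1, 2 and 3. Its log2 change was -0.25 (limma adjusted p = 0.09), and -0.23 without siDUB1 replicate 3 (limma adjusted p = 0.00326). PSMA3 and PSMA1 were likewise below the controls in all siDUB1 libraries, PSMA3 overlapping its antisense gene PSMA3-AS1, with log2 changes of -0.28 and -0.25 (limma adjusted p = 0.172 and 0.31). PSMA5 was the least abundant alpha gene, with 25.6 ± 0.569 FPKM in siDUB1 and 24.2 ± 1.56 FPKM in siControl, and PSMA7 the most abundant, with 278 ± 6.42 FPKM in siDUB1 and 329.6 ± 16.4 FPKM in siControl.

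The other caps and the inhibitor did not pass. PSME3 had 86.7, 87.8 and 85.3 FPKM in siDUB1 replicates 1, 2 and 3, against 88.3, 87.1 and 87.8 FPKM in siControl replicates 1, 2 and 3. PSME3, the nuclear PA28 gamma cap, differed little between any of the libraries (log2 change -0.019, limma adjusted p = 0.859). PSME4 had 17.9, 18.00 and 9.71 FPKM in siDUB1 replicates 1, 2 and 3, against 22.5, 19.99 and 21.2 FPKM in siControl replicates 1, 2 and 3. PSME4, the PA200 cap of nuclei and testis, was lower in every siDUB1 library, most in replicate 3 (log2 change -0.50, limma adjusted p = 0.187, and -0.23 with 0.00762 without that library). PSMF1, the PI31 protein, averaged 22.2 ± 1.65 FPKM in siDUB1 and 23.8 ± 0.995 FPKM in siControl (log2 change -0.10, limma adjusted p = 0.479).

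Within the siDUB1 group, the deviation of replicate 3 differed along the GC content of the transcript. Replicate 3 stood above the mean of siDUB1 replicates 1 and 2 in 21 of 23 genes whose transcripts held at least 50% GC, and below it in 10 of 13 genes under 45% GC. Between 45% and 50% it was below in 7 of 9 genes. The level in replicate 3 minus the mean of replicates 1 and 2 was -1.33 on the log2 scale for PSMC6 at 38.1% GC and 0.62 for PSMB10 at 60.6% GC. Across the 45 genes, which share these 3 libraries, Pearson's r was 0.75 and Spearman's rho 0.78, beside 0.69 and 0.71 across 10907 genes of the whole table. PSMG4, PSMD3 and PSMD9 were among the genes in which replicate 3 stayed close to the others.

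**Figure D5:**
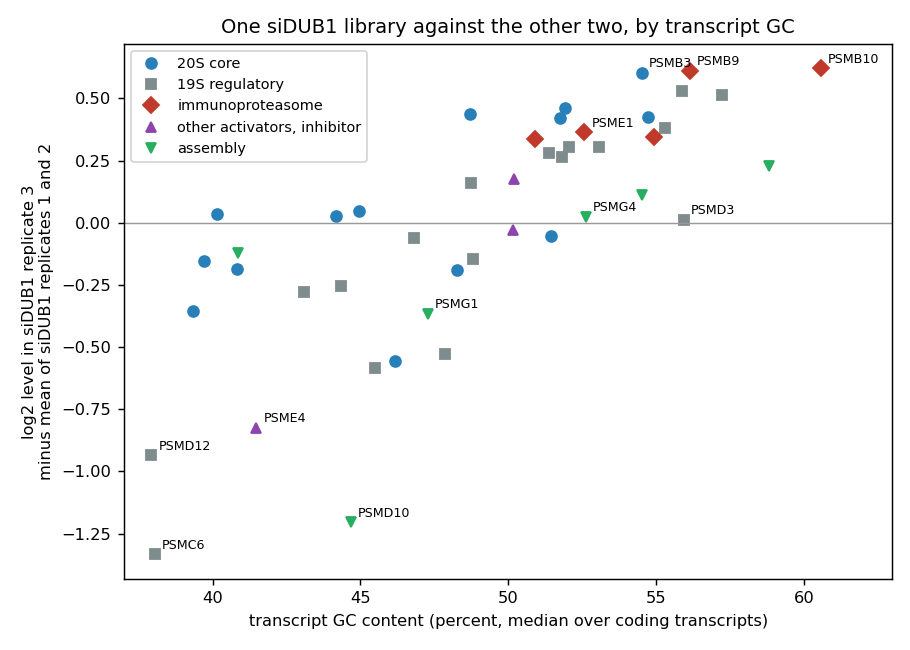
Level in siDUB1 replicate 3 minus the mean of siDUB1 replicates 1 and 2, on the log2(FPKM + 1) scale, against transcript GC content in percent for the 45 tested proteasome genes, with symbols by role. Points run from PSMC6 at 38.1% GC and -1.33 to PSMB10 at 60.6% GC and 0.62, and PSMG4 and PSMD3 lie near 0.

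With a correction of each library for GC content and length, the 4 called genes kept their calls and directions. PSMG4 stood at 0.45, PSME1 at 0.40, PSMG1 at -0.55 and PSMD3 at -0.51 on the log2 scale. PSMB9 then passed as lower at -0.65 (limma adjusted p = 0.0102) and PSMB6 as higher at 0.25 (limma adjusted p = 0.0164). PSMC6 and PSMD12, by contrast, stood at -0.36 and -0.20 and did not pass (limma adjusted p = 0.289 and 0.17).

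Genes that act with the proteasome but lie outside the symbol pattern were taken from lists of 38 genes found in the table, of which 37 were tested. Of these 2 rose, 2 fell and 33 did not pass, or 10.8%, beside the 14.1% over all genes. Among 7 further subunit and assembly genes, PAAF1, a chaperone that binds ATPases of the regulatory base, rose and 6 did not pass. PAAF1 had 12.9, 14.3 and 14.7 FPKM in siDUB1 replicates 1, 2 and 3, against 8.23, 9.44 and 9.32 FPKM in siControl replicates 1, 2 and 3. The groups did not overlap (log2 change 0.58, SE 0.11, limma adjusted p = 0.0246). The call was lost without siDUB1 replicate 1 or 2 (limma adjusted p = 0.0641 and 0.0661) and without siControl replicate 1, 2 or 3 (0.127, 0.113 and 0.12). POMP, which completes the core particle, averaged 107 ± 8.21 FPKM in siDUB1 and 122 ± 10.9 FPKM in siControl and did not pass (log2 change -0.19, limma adjusted p = 0.247).

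Among 9 genes of NRF1 and NRF2 control none passed, and 2 had a log2 change above 0 and 7 below. Of the 9, 3 were lower in every siDUB1 library, or 33.3%, beside 28.5% of all genes tested. A log2 change below 0 was found in 6157 of all 10994 genes tested. Without siDUB1 replicate 3 the 9 split into 5 above and 4 below 0, around a median of 0.064. NFE2L1 had 56.2, 57.9 and 40.9 FPKM in siDUB1 replicates 1, 2 and 3, against 41.8, 40.6 and 40.4 FPKM in siControl replicates 1, 2 and 3. NFE2L1 was higher in siDUB1 replicates 1 and 2 than in every control, and replicate 3 lay among the controls (log2 change 0.31, limma adjusted p = 0.179). It stood at 0.47 when replicate 3 was left out (limma adjusted p = 6.53e-06). With the GC and length correction NFE2L1 stood at 0.082 (limma adjusted p = 0.819), and at 0.37 with siDUB1 replicate 3 also left out (limma adjusted p = 1.04e-04). DDI2, the protease that activates NRF1, and NFE2L2, which encodes NRF2, were chosen after their values were seen. DDI2 had 2.16, 2.10 and 1.08 FPKM in siDUB1 replicates 1, 2 and 3, against 3.67, 3.20 and 3.61 FPKM in siControl replicates 1, 2 and 3. DDI2 stood at -0.72 (limma adjusted p = 0.0509), and passed at -0.52 without siDUB1 replicate 3 (limma adjusted p = 2.48e-04) and at -0.37 with the GC and length correction (limma adjusted p = 0.0184). NFE2L2 had 46.7, 48.1 and 16.6 FPKM in siDUB1 replicates 1, 2 and 3, against 57.2, 55.3 and 56.7 FPKM in siControl replicates 1, 2 and 3. NFE2L2 stood at -0.73 (limma adjusted p = 0.227) and at -0.25 without siDUB1 replicate 3 (limma adjusted p = 9.12e-04). Both were lower in every siDUB1 library, and lowest in replicate 3.

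Of 4 tested genes that control immunoproteasome transcription, 2 fell and 2 did not pass. NLRC5 had 3.98, 4.51 and 4.02 FPKM in siDUB1 replicates 1, 2 and 3, against 8.90, 9.38 and 8.92 FPKM in siControl replicates 1, 2 and 3. NLRC5, an activator of class I genes of the major histocompatibility complex, stood at -0.96 on the log2 scale (SE 0.11, limma adjusted p = 0.00631), with a limma adjusted p of 0.0586, 0.0591 and 0.0605 without siControl replicate 1, 2 or 3. IRF1 had 16.1, 16.8 and 16.8 FPKM in siDUB1 replicates 1, 2 and 3, against 22.3, 24.02 and 21.96 FPKM in siControl replicates 1, 2 and 3. IRF1, a transcription factor needed for interferon-driven immunoproteasome expression, stood at -0.44 (SE 0.092, limma adjusted p = 0.0291), and lost its call with size factors (limma adjusted p = 0.105), without siDUB1 replicate 1 or 2 (0.0956 and 0.0678) and without siControl replicate 1, 2 or 3 (0.132, 0.152 and 0.133). In both genes every siDUB1 library was below every control. PSMB9 itself overlapped between the groups, while PSMB8, PSME1 and PSME2 were above every control in every siDUB1 library. A link between these regulators and the immunoproteasome genes was not tested. Among 6 genes of ubiquitin and its activation none passed. Among 11 genes of bound deubiquitinases, ligases and shuttle proteins 1 rose and 10 did not pass, or 9.09%, beside 14.1% of all genes. Of these 11, 1 had a log2 change above 0 and 10 below, around a median of -0.56, beside -0.064 over all genes. The groups did not overlap in 8, or 72.7%, beside 53.3% of all genes. Without siDUB1 replicate 3 the median was -0.22, beside 0.023 over all genes. Of the symbols counted apart, PSME3IP1 stood at 0.28 (limma adjusted p = 0.129) and PSMC3IP at -0.18 (limma adjusted p = 0.476).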

How the data were processed

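RNA from AGS cells was sequenced on BGISEQ-500 libraries, per the labels' protocols, in 3 siDUB1 and 3 siControl libraries grouped by title. The authors deposited FPKM values per gene, rounded to 2 decimals, per the file headers. The build named in the submitters' processing notes is GRCh38. The aligner, counter, annotation and use of strand are not given in the sources used here, and the depth is unknown. NCBI Gene IDs were matched to symbols for 18437 of 18597 rows. Genes with at least 1 FPKM in at least 3 libraries were tested with limma 3.58.1 (R 4.3.3) on log2(FPKM + 1) using a mean-variance trend and two-sided tests, with Benjamini-Hochberg adjustment over 10994 genes and a threshold of 0.05, after a check on simulated data. Fold changes on this scale understate those of low genes. Ratios of immune to standard subunits were compared by exact permutation tests. Transcript GC content and length came from GENCODE v29 and covered 99.2% of the tested genes. Promoter sequences came from RefSeq (GRCh38.p14). The alternatives were 2 scalings, 2 filters, 2 pseudocounts, 2 eBayes settings, a replicate block, a GC and length correction with and without siDUB1 replicate 3, and each library left out. The members and lists were chosen with earlier results of these data known. Every member could be named; those past the threshold, the immune and standard pairs, PSME1 and PSME2 are given in full, and the others by counts with up to 4 examples a class of smallest p. Related genes are given by counts, with up to 2 that rose and 2 that fell, plus NFE2L1, IRF1 and POMP. PSMA8, PSMB11 and DDI1 were not analysed here. The results of 1 related gene and 1 cell type marker are not reported here.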

Additional observations from a re-analysis of the deposited data

How the results depend on the processing

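PSMG4, PSMG1, PSME1 and PSMD3 kept their directions under all 17 alternatives, but the number of genes called did not hold. In all, 1545 genes were called, against 2660 with the GC and length correction, 2554 with quantile normalization, 6349 with the correction and siDUB1 replicate 3 left out, and 125 to 6299 when single libraries were left out. Of the proteasome genes 4 were called, against 2 with size factors, 2 with no filter on low values, 11 with the GC and length correction, 8 with quantile normalization, 22 with the correction and siDUB1 replicate 3 left out, and 0 to 24 when single libraries were left out. The cause of these shifts was not tested.

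With the replicate block 0 proteasome genes and 179 genes in all were called. Whether the numbers pair the libraries is not given in the labels. Deviations of same-numbered libraries from their group means correlated at 0.25, -0.49 and -0.23, and not every library correlated best with its own number. Deviations within a group are bound to cancel out. With siControl replicate 1, siDUB1 replicates 1 and 2 gave nearly the same correlations, 0.25 and 0.30. These correlations therefore cannot decide whether the libraries are paired.

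The median log2 change of the core genes was 0.035, against 0.11 with the GC and length correction, 0.11 with size factors and -0.081 with quantile normalization. That of the regulatory genes was -0.15, against -0.20 with quantile normalization, -0.083 with size factors, -0.091 with the GC and length correction, -0.088 with that correction and siDUB1 replicate 3 left out, and -0.20 to -0.11 when single libraries were left out. That of the assembly genes was -0.067, against 0.0019 with size factors, -0.13 with the GC and length correction, 0.0017 with quantile normalization, 0.062 with that correction and siDUB1 replicate 3 left out, and -0.075 to 0.079 when single libraries were left out.

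Of the 45 members 8 changed direction without siDUB1 replicate 3, 8 with the GC and length correction and 10 with both. Among them PSMB4, PSMC3, PSMD6 and PSMD14 stood at -0.024, -0.041, 0.041 and 0.0090 without siDUB1 replicate 3. With the GC and length correction PSMB10 stood at -0.20, PSMD1 at 0.036, POMP at 0.10, PSMC4 at -0.058 and PSMD9 at -0.16. With that correction and siDUB1 replicate 3 left out, PSMB7 stood at -0.018, PSMB10 at -0.21, POMP at 0.015, PSMC4 at -0.073, PSMD9 at -0.10 and PSMD10 at 0.23. Without siDUB1 replicate 3 alone PSMB10 stood at -0.098, PSMD9 at -0.028 and PSMD10 at 0.24. PSME3 stood at 0.052 with size factors, PSMC3IP at 0.020 with quantile normalization and PSMD9 at -0.0049 without siControl replicate 1. When single libraries were left out PSMB10 ranged from -0.098 to 0.24, PSMD9 from -0.028 to 0.054 and PSMD10 from -0.38 to 0.24. The filter of 5 FPKM cannot give a value for PSMB9. Depth is unknown, so no counting error can be attached to the values.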
